A study of Homo sapiens with 12 samples.

Results

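The NOTCH transcription complex is built from a NOTCH receptor fragment, the DNA-binding protein RBPJ and a mastermind-like co-activator. Its 7 genes here are the receptors NOTCH1, NOTCH2 and NOTCH3, RBPJ itself, and MAML1, MAML2 and MAML3. They were chosen by name: every probe set that the platform annotation ties to exactly 1 gene symbol, where that symbol is a member. This gave 17 of the 54675 probe sets on the array and 7 of 19775 named genes. No member was left out, and no filter on low values was applied. NOTCH2 had 4 probe sets, RBPJ and MAML3 had 3 each, NOTCH1, NOTCH3 and MAML2 had 2 each, and MAML1 had 1.

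The 12 arrays, each of a separate GEO sample, came from KOPT-K1 and HPB-ALL, lines grown from human T-cell acute lymphoblastic leukaemia (T-ALL) that both carry activating NOTCH1 mutations. Each line was treated for 24 hours either with 20 µM SAHM1, a peptide, or with as much DMSO, its solvent. The 4 groups were KOPT-K1 with DMSO, KOPT-K1 with SAHM1, HPB-ALL with DMSO and HPB-ALL with SAHM1, each with 3 arrays. The labels name no transgene or deletion in any group, and each line stands for 1 leukaemia. The question here was whether RNA of the complex that SAHM1 was designed to block changes under the peptide.

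NOTCH receptors sit on the cell surface. A ligand on a neighbouring cell leads to their cleavage, and the freed intracellular part moves to the nucleus, where it binds RBPJ on DNA. The joint surface of both proteins holds the N-terminal helix of a mastermind-like protein, which brings in histone acetyltransferases and switches target genes on. Without NOTCH, RBPJ binds co-repressors and keeps the same genes low. SAHM1 is a hydrocarbon-stapled peptide modelled on that helix of MAML1, and competes with mastermind for the surface. NOTCH1 is the receptor most often mutated in T-ALL, and NOTCH3 is known as a target gene of NOTCH1 in T-cell leukaemia as well as a receptor.

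Every deposited value is a ratio to the mean of the 3 DMSO arrays of the same line, so the files hold no levels: neither the abundance of 1 gene against another nor the difference between untreated lines can be read. For the same reason the T-cell markers of these lines could not be checked for presence, but only for change. Of 8 T-lineage markers, limma called 0 in KOPT-K1 (2 at an unadjusted p under 0.05), where 19.0% of all genes were called and 32.9% passed unadjusted. In HPB-ALL it called 3, with CD3G higher and CD7 and LCK lower, where 9.34% of all genes were called. Of 9 measured markers of B, myeloid and erythroid cells, 1 (MS4A1) rose in KOPT-K1 and 0 were called in HPB-ALL (0 at an unadjusted p under 0.05). In such bulk RNA, fewer cells of a kind and less RNA per cell cannot be told apart. Signal for 18S ribosomal RNA (3 probe sets) stood 2.19 above DMSO (log2) on the SAHM1 arrays of HPB-ALL. On its DMSO arrays it ranged from -1.65 to 1.05, with replicate 1 apart from the others at 1.05. In KOPT-K1 the mean of 18 probe sets for spiked-in control RNA stood 0.83 higher under SAHM1. ACTB, read by probe sets at both ends of its RNA, gave 5' minus 3' values of -0.03 to 0.05 on the 6 DMSO arrays and -0.41 to -0.09 on the 6 SAHM1 arrays, a shift of -0.17 in KOPT-K1 and -0.24 in HPB-ALL. Fits were repeated with 18S, and with 18S and spikes, as covariates. On the SAHM1 arrays of HPB-ALL 18S ran from 1.35 to 1.89, above all its DMSO arrays. In KOPT-K1 the spikes read 0.60 to 1.05 with SAHM1 and -0.02 to 0.01 with DMSO. Such fits can hardly separate the covariate from SAHM1, and what a call lost in them is due to was not tested. Quantile normalization was also run, which forces 1 distribution of ratios on DMSO and SAHM1 arrays alike, though only the latter can hold a response. The part of the ACTB shift in the changes below was not tested.

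The promoters of the members were read from RefSeq (build GRCh38.p14), 250 bases before to 50 bases after each start site, to see what the genes share beyond their names. All 7 genes matched, with 11 promoters in all, 5 of them of RBPJ. The motif searched was TGGGAA, the core of the site that RBPJ binds, on either strand (TTCCCA on the other), and it overlaps no other motif searched. It was present in 1 of the 11 promoters, against 24.0% of all 35116 promoters of this length. The promoters shown are those of NOTCH3 and NOTCH2, which passed a test below, and the RBPJ promoter that holds the motif. Bases are in lower case and the motif is in capitals. NOTCH3 lies on the minus strand at chr19:15200946-15201245, NOTCH2 on the minus strand at chr1:120069613-120069912, and the RBPJ promoter on the plus strand at chr4:26319496-26319795.
NOTCH3: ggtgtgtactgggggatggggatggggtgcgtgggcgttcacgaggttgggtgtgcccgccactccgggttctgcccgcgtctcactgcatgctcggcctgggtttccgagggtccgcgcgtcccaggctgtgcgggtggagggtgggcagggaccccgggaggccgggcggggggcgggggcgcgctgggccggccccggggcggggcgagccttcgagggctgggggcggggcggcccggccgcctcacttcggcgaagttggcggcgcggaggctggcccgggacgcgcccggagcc
NOTCH2: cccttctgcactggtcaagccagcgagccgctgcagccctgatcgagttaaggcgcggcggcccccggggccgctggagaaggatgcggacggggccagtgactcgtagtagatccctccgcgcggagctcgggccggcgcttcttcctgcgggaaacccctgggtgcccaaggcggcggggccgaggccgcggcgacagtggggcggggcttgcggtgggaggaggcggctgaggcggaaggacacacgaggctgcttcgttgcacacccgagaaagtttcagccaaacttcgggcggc
RBPJ: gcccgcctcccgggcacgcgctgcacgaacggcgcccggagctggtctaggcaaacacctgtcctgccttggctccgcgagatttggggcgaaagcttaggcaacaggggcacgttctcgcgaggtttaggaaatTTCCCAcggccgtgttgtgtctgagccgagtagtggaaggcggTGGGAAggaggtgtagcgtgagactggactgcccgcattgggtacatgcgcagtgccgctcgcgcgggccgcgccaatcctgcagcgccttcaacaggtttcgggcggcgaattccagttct
The RBPJ promoter held the motif in 2 places, with first bases at -115 (minus strand) and -72 (plus strand) from the start site. No match says only that these letters are not in this window. G and C made up 77.0% of the NOTCH1 promoter, 70.3% for NOTCH2, 78.3% for NOTCH3, 63.3% for MAML1, 61.3% for MAML2 and 71.3% for MAML3, against a median of 58.7% over all promoters. The lowest of the 5 RBPJ promoters held 35.3%. CG dinucleotides numbered 42, 33 and 37 in NOTCH1, NOTCH2 and NOTCH3 and 29, 13 and 37 in MAML1, MAML2 and MAML3, and ran from 0 to 50 over the RBPJ promoters, where the median promoter held 14.

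The 7 gene changes lay between -0.24 and 0.07 in KOPT-K1 and between -0.34 and 0.12 in HPB-ALL (log2, SAHM1 minus DMSO). In KOPT-K1, limma called 0 of the 7 genes (adjusted p under 0.05), where 19.0% of all genes were called. At an unadjusted p under 0.05 the count was 3 of 7, all lower (NOTCH2, NOTCH3 and RBPJ), where 32.9% of all genes passed. In HPB-ALL 1 of 7 genes was called, NOTCH3, which fell, where 9.34% of all genes were called and 4.38% fell. The same gene alone passed an unadjusted p under 0.05, as did 22.0% of all genes. The median change of the 7 genes was -0.05 in KOPT-K1 and -0.12 in HPB-ALL on the log2 scale, and over all genes it was 2.0e-05 and -0.02. SAHM1 arrays lay wholly below the DMSO arrays for 1 of 7 genes in KOPT-K1 (RBPJ), as for 21.6% of all genes. None lay wholly above in KOPT-K1 (0 of 7, against 13.5% of all genes). In HPB-ALL they lay below for 3 (NOTCH2, NOTCH3 and MAML3), as for 15.7% of all genes, and above for 1 (MAML2), as for 13.4%. These shares of a list of 7 are given as counts, with no test of the list.

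**Figure D1:**
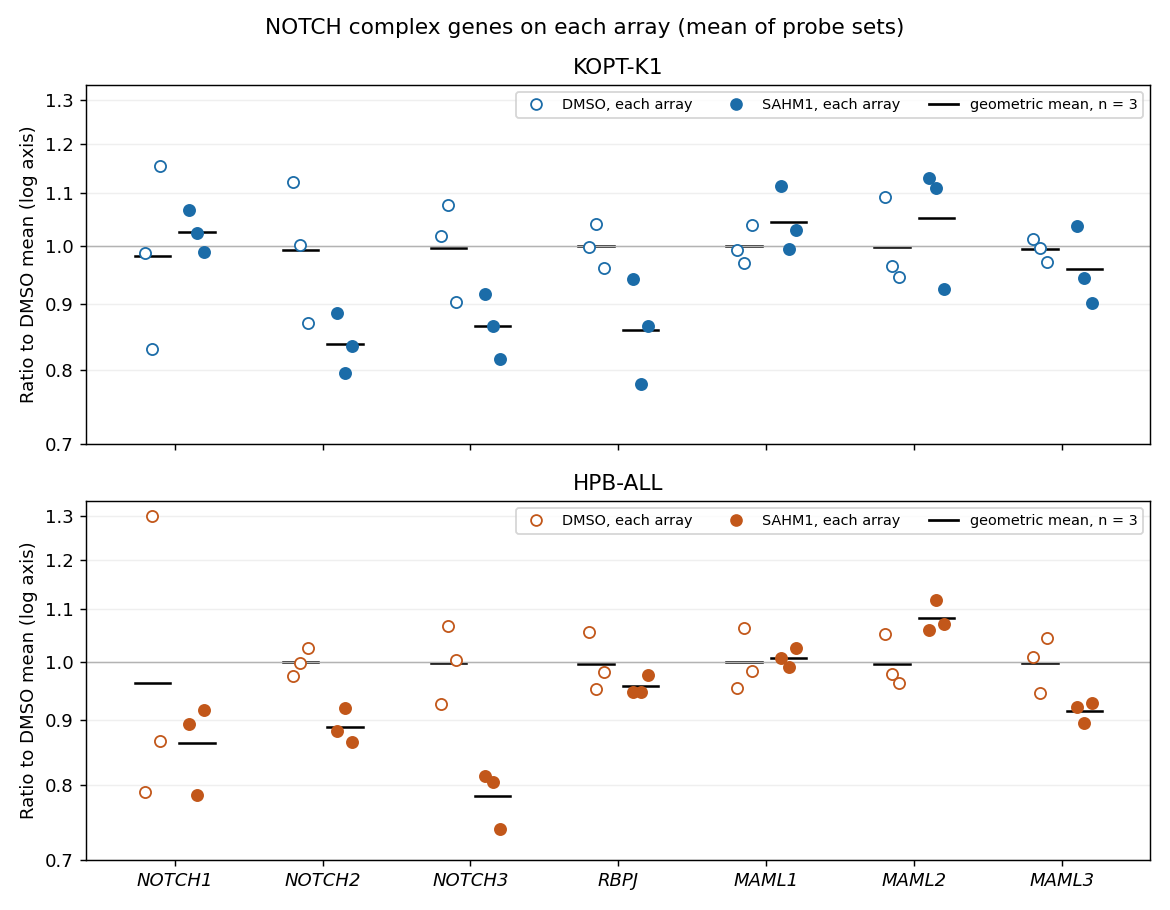
Ratio of each complex gene to the DMSO mean of its line (y axis, log scale; mean over probe sets taken on the log2 scale) on each of the 12 arrays, with open points for DMSO, filled points for SAHM1 and bars for the geometric mean of 3 arrays. NOTCH3 in HPB-ALL has SAHM1 arrays between 0.740 and 0.813, below DMSO arrays of 0.927 to 1.07, while the MAML1 points of both treatments overlap in each line.

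NOTCH3, the receptor that is also a NOTCH target, had the smallest adjusted p among the members in HPB-ALL. Its ratios in HPB-ALL were 0.927, 1.07 and 1.00 on the DMSO arrays and 0.813, 0.805 and 0.740 on the SAHM1 arrays. All 3 treated arrays were thus below all 3 controls. The change was -0.34 ± 0.08 (log2, SE, n = 3 arrays per group; 95% interval -0.52 to -0.17; adjusted p = 0.0193), a 1.27-fold fall. In KOPT-K1 the ratios were 1.02, 1.08 and 0.904 with DMSO and 0.916, 0.866 and 0.816 with SAHM1. DMSO replicate 3 lay below SAHM1 replicate 1, so the groups overlapped. The change there was -0.20 ± 0.08 (95% interval -0.38 to -0.03; adjusted p = 0.0984), and it passed the threshold without DMSO replicate 3 (-0.27, adjusted p = 0.0463).

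NOTCH3 was measured by 2 probe sets that differed in size. Probe set 203238_s_at read 0.876, 1.15 and 0.976 with DMSO and 0.793, 0.727 and 0.620 with SAHM1 in HPB-ALL. All its treated arrays were lower, and its change was -0.49 ± 0.13 (adjusted p = 0.0496). That call was lost without any 1 of the line's arrays other than DMSO replicate 1 (-0.57 to -0.38, adjusted p from 0.0674 to 0.211), with arrays centred on their median (adjusted p = 0.0520) and with robust eBayes (0.0533). The other, 203237_s_at, changed by -0.20 ± 0.09 in the same line (adjusted p = 0.261), with treated arrays also all below the controls at 0.834, 0.891 and 0.883 against 0.980, 0.991 and 1.03. In KOPT-K1 the first stood at -0.40 ± 0.13 (adjusted p = 0.0572) and the second at -0.01 ± 0.09 (adjusted p = 0.967). The call of NOTCH3 in HPB-ALL was lost under quantile normalization (-0.32 ± 0.11, adjusted p = 0.174) and in the fit with 18S, which moved with treatment, as covariate (-0.23 ± 0.13, adjusted p = 0.748). It was also lost without DMSO replicate 2 (adjusted p = 0.0866) or 3 (0.0627), and without SAHM1 replicate 2 (0.0530) or 3 (0.0804), with changes between -0.36 and -0.29.

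NOTCH2, a receptor with short gene copies (the NOTCH2NL genes) that share its 5' exons, was lower in each line without passing the test in either. In HPB-ALL its ratios were 0.974, 0.998 and 1.02 with DMSO and 0.882, 0.920 and 0.866 with SAHM1. The groups did not overlap, and the change was -0.17 ± 0.08 (95% interval -0.35 to 0.01; adjusted p = 0.271). In KOPT-K1 they were 1.12, 1.00 and 0.870 with DMSO and 0.886, 0.795 and 0.835 with SAHM1. DMSO replicate 3 was lower than SAHM1 replicate 1, and the change was -0.24 ± 0.08 (95% interval -0.43 to -0.06; adjusted p = 0.0583). Without DMSO replicate 3 it was -0.34 (adjusted p = 0.0121), and without DMSO replicate 1 it was -0.16.

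The 4 NOTCH2 probe sets all stood below 0 in both lines. In KOPT-K1, 212377_s_at fell by 0.51 ± 0.12 (adjusted p = 0.0131), with ratios of 1.10, 1.07 and 0.829 with DMSO and 0.793, 0.635 and 0.667 with SAHM1. Its treated arrays were all below its controls. This call was lost with 18S and spikes as covariates (-0.35, adjusted p = 0.337), without DMSO replicate 1 (-0.44, adjusted p = 0.0575) or 2 (-0.46, 0.0544), and without SAHM1 replicate 2 (-0.45, 0.0513). The others in that line were 202443_x_at at -0.31 ± 0.10, 210756_s_at at -0.09 ± 0.14 and 202445_s_at at -0.06 ± 0.09. In HPB-ALL the 4 ranged from -0.21 to -0.09, and limma called 0 of them (0 at an unadjusted p under 0.05). Of all probe sets, 5.15% were called there and 17.8% passed unadjusted. The suffixes _s_at and _x_at mark probes shared by several transcripts or open to cross-hybridization, and all 4 carry one, so signals of NOTCH2 and its copies may be mixed. Probe set 227067_x_at, which the annotation ties to 5 symbols including NOTCH2 and is therefore no member, was at 0.06 ± 0.09 in KOPT-K1 and 0.31 ± 0.09 in HPB-ALL (adjusted p = 0.0638). Probe set 214722_at of NOTCH2NLA was at 0.13 ± 0.10 and 0.15 ± 0.10.

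NOTCH1, the receptor mutated in both lines, gave wide intervals. Its ratios in KOPT-K1 were 0.988, 0.831 and 1.15 with DMSO and 1.07, 1.02 and 0.989 with SAHM1. In HPB-ALL they were 0.791, 1.30 and 0.867 with DMSO and 0.894, 0.787 and 0.916 with SAHM1. The DMSO arrays spanned more than the treated arrays in both lines, and the groups overlapped. The changes were 0.06 ± 0.16 (95% interval -0.28 to 0.41; adjusted p = 0.824) and -0.16 ± 0.16 (-0.50 to 0.19; adjusted p = 0.646).

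The spread of NOTCH1 came from probe set 223508_at. With DMSO it read 0.637, 1.56 and 0.804 in HPB-ALL and 0.987, 0.681 and 1.33 in KOPT-K1. With SAHM1 it read 0.744, 0.616 and 0.796 in HPB-ALL and 1.24, 1.10 and 1.11 in KOPT-K1, inside the span of the controls apart from HPB-ALL replicate 2. The steadier probe set, 218902_at, read 0.988, 1.01 and 0.999 with DMSO and 0.915, 0.951 and 0.883 with SAHM1 in KOPT-K1. There the treated arrays were all lower, by -0.13 ± 0.08 (95% interval -0.29 to 0.04; adjusted p = 0.312). In HPB-ALL it changed by 0.06 ± 0.08 (95% interval -0.10 to 0.23; adjusted p = 0.760).

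RBPJ, the DNA-binding part of the complex, was lower in KOPT-K1 on all treated arrays. Its ratios there were 0.997, 1.04 and 0.961 with DMSO and 0.942, 0.780 and 0.865 with SAHM1. SAHM1 replicate 2 was the lowest and the groups did not overlap. The change of -0.22 ± 0.07 (95% interval -0.38 to -0.06) missed the threshold (adjusted p = 0.0574), which it passed with the median of probe sets (-0.19, adjusted p = 0.0365) and without SAHM1 replicate 1 (-0.28, adjusted p = 0.0218). In HPB-ALL the ratios were 1.05, 0.952 and 0.981 with DMSO and 0.947, 0.946 and 0.977 with SAHM1. The groups overlapped, and the change was -0.06 ± 0.07 (95% interval -0.22 to 0.10; adjusted p = 0.729).

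For RBPJ, the 3 probe sets spread between -0.45 and -0.02 in KOPT-K1. Probe set 207785_s_at fell by 0.45 ± 0.12 (adjusted p = 0.0260), reading 1.02, 1.03 and 0.954 with DMSO and 0.889, 0.604 and 0.728 with SAHM1. Its treated arrays were all lower, with replicate 2 the farthest. The call was lost with 18S and spikes as covariates (-0.27, adjusted p = 0.450), without SAHM1 replicate 2 (-0.31, adjusted p = 0.0903) or 3 (-0.45, 0.0561), and without DMSO replicate 1 (-0.44, 0.0748) or 2 (-0.43, 0.0787). Probe set 211974_x_at stood at -0.18 ± 0.07 (adjusted p = 0.110), with treated arrays of 0.885, 0.900 and 0.869 below controls of 1.04, 1.00 and 0.952. The third, 229540_at, the only one without such a suffix, stood at -0.02 ± 0.13 with overlapping arrays. In HPB-ALL the 3 probe sets were at -0.14, -0.04 and 0.00, and limma called 0 of them (0 at an unadjusted p under 0.05). Of all probe sets, 5.15% were called in that line and 17.8% passed unadjusted. RBPJ has processed pseudogenes, so the _x_at and _s_at values may include other sequences.

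MAML1, the co-activator whose helix SAHM1 copies, was measured by 1 probe set, 202360_at. In KOPT-K1 its ratios were 0.993, 0.969 and 1.04 with DMSO and 1.11, 0.995 and 1.03 with SAHM1. In HPB-ALL they were 0.954, 1.06 and 0.984 with DMSO and 1.01, 0.990 and 1.03 with SAHM1. The groups overlapped in both lines. The changes were 0.06 ± 0.06 and 0.01 ± 0.06, with 95% intervals of -0.08 to 0.20 and -0.13 to 0.15. In linear terms these intervals run from 0.948 to 1.15 times the DMSO level in KOPT-K1 and from 0.915 to 1.11 times in HPB-ALL.

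MAML2, a second mastermind-like co-activator, stood slightly above its controls. In HPB-ALL its ratios were 1.05, 0.978 and 0.962 with DMSO and 1.06, 1.12 and 1.07 with SAHM1. The groups did not overlap, by a margin of 1.06 against 1.05, and the change was 0.12 ± 0.08 (95% interval -0.06 to 0.30; adjusted p = 0.475). In KOPT-K1 they were 1.09, 0.963 and 0.945 with DMSO and 1.13, 1.11 and 0.925 with SAHM1. There the groups overlapped, at 0.07 ± 0.08 (95% interval -0.11 to 0.26; adjusted p = 0.587). Probe sets 235106_at and 235457_at of MAML2 changed by 0.03 and 0.12 in KOPT-K1, and in HPB-ALL by 0.02 and 0.22.

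MAML3, the third co-activator, was near its controls as a gene while its probe sets disagreed. The gene changed by -0.05 ± 0.06 in KOPT-K1 (95% interval -0.19 to 0.09) and by -0.12 ± 0.06 in HPB-ALL (-0.27 to 0.02; adjusted p = 0.298). In HPB-ALL the treated arrays, at 0.921, 0.896 and 0.929, were all below the controls at 1.01, 0.944 and 1.04. In KOPT-K1 the treated arrays of 1.04, 0.944 and 0.902 overlapped controls of 1.01, 0.996 and 0.971. Probe set 207946_at rose in KOPT-K1 by 0.37 ± 0.10 (adjusted p = 0.0310), with ratios of 1.15, 0.922 and 0.930 with DMSO and 1.30, 1.15 and 1.41 with SAHM1. The lowest treated array was just above the highest control there. Without any 1 of DMSO replicates 2 and 3 or SAHM1 replicates 1 and 3 the call was lost (0.30 to 0.35, adjusted p from 0.0680 to 0.112), as it was with 18S and spikes as covariates (0.29, adjusted p = 0.372). In HPB-ALL it read 0.937, 1.04 and 1.03 with DMSO and 0.883, 0.869 and 0.841 with SAHM1, all lower, at -0.21 ± 0.10 (adjusted p = 0.318).

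Probe set 242794_at of MAML3 went the other way in KOPT-K1, with ratios of 1.13, 0.959 and 0.911 with DMSO and 0.954, 0.755 and 0.602 with SAHM1. These overlapped, and the change was -0.40 ± 0.15 (adjusted p = 0.102). Without SAHM1 replicate 1 it was -0.56 (adjusted p = 0.0206). The third, 228508_at, was at -0.12 ± 0.12. The mean of the 3 thus hides values that run from -0.40 to 0.37 in that line. Over all members, 3 of 17 probe sets were called in KOPT-K1 (212377_s_at and 207785_s_at lower, 207946_at higher), where 14.6% of all probe sets were called, 9.80% lower and 4.75% higher. At an unadjusted p under 0.05 these were 7 of 17, where 28.8% of all passed. In HPB-ALL 1 of 17 was called (203238_s_at, lower), where 5.15% were, 2.06% lower. At an unadjusted p under 0.05 these were 2 of 17, where 17.8% of all passed. Treated arrays lay wholly below the controls for 6 of 17 probe sets in each line, where 18.5% of all probe sets did in KOPT-K1 and 12.4% in HPB-ALL. They lay wholly above for 1 in KOPT-K1 (12.4% of all) and 0 in HPB-ALL (12.5%). Under quantile normalization, or with 18S and spike levels as covariates, 0 of the 17 probe sets were called in either line.

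**Figure D2:**
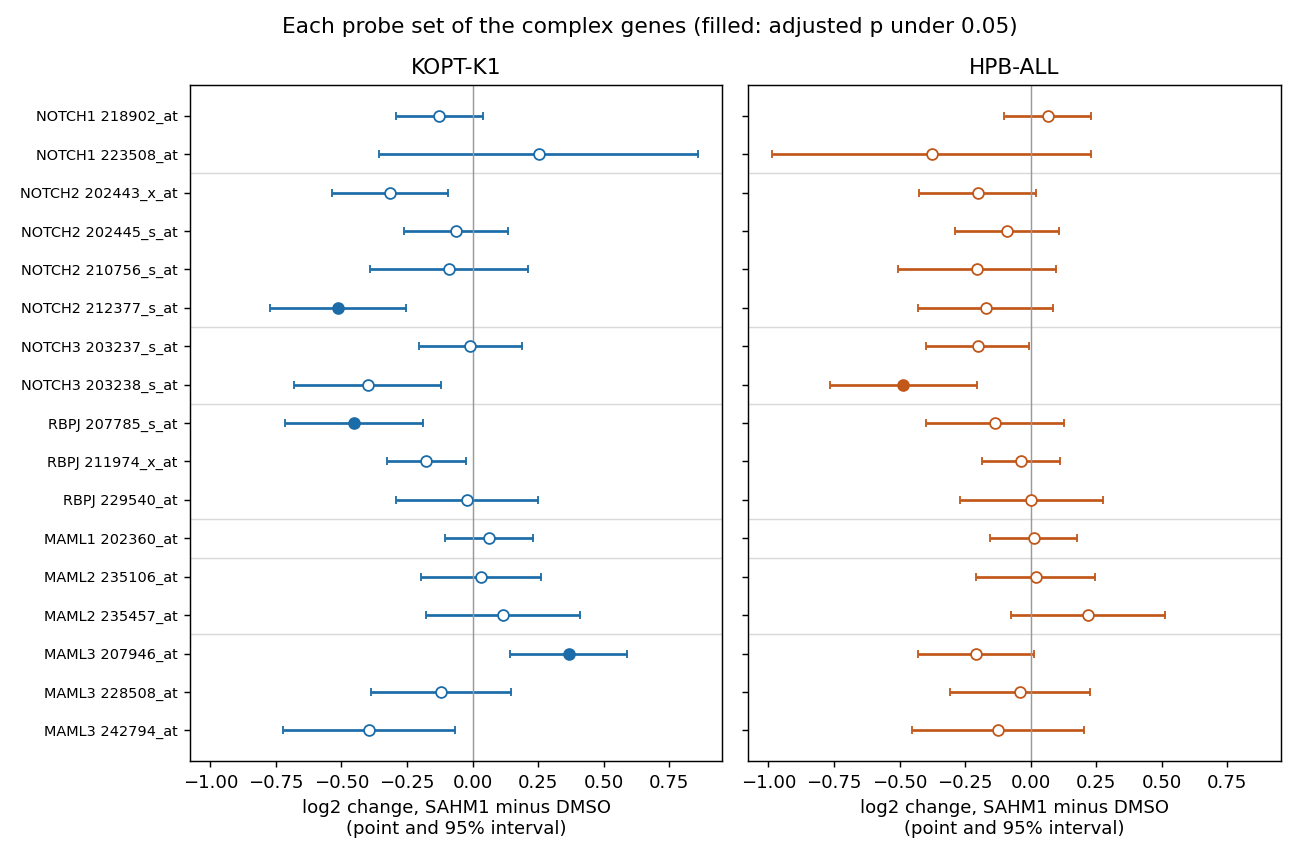
Log2 change of each of the 17 probe sets (rows, grouped by gene), SAHM1 minus DMSO, with 95% intervals from limma, in KOPT-K1 (left) and HPB-ALL (right); filled points passed adjusted p under 0.05. Probe sets of RBPJ run from -0.45 to -0.02 and those of MAML3 from -0.40 to 0.37 in KOPT-K1.

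Target genes of the complex, measured on the same arrays, give a scale for these values. HES1, a repressor that NOTCH switches on directly, read 0.624, 0.600 and 0.633 with SAHM1 in KOPT-K1 and 0.662, 0.664 and 0.666 in HPB-ALL, against controls between 0.977 and 1.02. The arrays were far apart in both lines. HES4, of the same family, read between 0.382 and 0.457 on the 6 treated arrays, and DTX1, a ubiquitin ligase acting on NOTCH, between 0.386 and 0.632. These 3 genes were chosen as known to fall in these data, so their values are a description only. HES1 changed by -0.69 in the first line and by -0.59 in the second. These are means of 3 probe sets that differed in size. In KOPT-K1 the probe sets of HES1 changed by -0.04, -0.93 and -1.09. In HPB-ALL they changed, in the same order, by -0.08, -1.01 and -0.68. The first of them was called in neither line, and the others fell in both. A count over the 6 target genes listed is a description too, since HES1, HES4 and DTX1 are among them. Of the 6, 4 fell in each line (HES1, HES4, DTX1 and MYC), where 13.2% of all genes fell in KOPT-K1 and 4.38% in HPB-ALL. The others, NRARP and PTCRA, were called in neither: NRARP, a NOTCH inhibitor, stood at -0.04 in KOPT-K1 and 0.08 in HPB-ALL, and PTCRA, part of the pre-T-cell receptor, at 0.12 and -0.08. Among the 7 complex genes, the lowest bound of a 95% interval was -0.43 in KOPT-K1 (NOTCH2) and -0.52 in HPB-ALL (NOTCH3). Whether any member differed from a target gene was not tested.

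**Figure D3:**
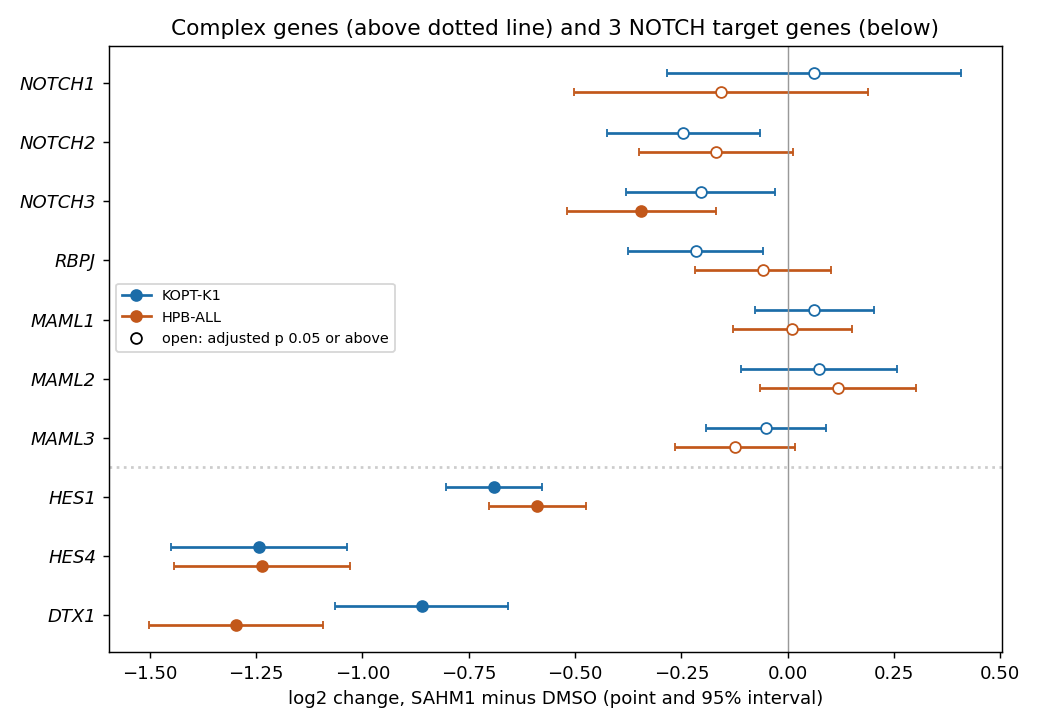
Log2 change of the 7 complex genes and, below the dotted line, of the target genes HES1, HES4 and DTX1, SAHM1 minus DMSO, as points with 95% intervals from limma in KOPT-K1 (blue) and HPB-ALL (orange); open points missed adjusted p of 0.05. The complex genes lie between -0.34 and 0.12 and the target genes between -1.30 and -0.59.

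Averaged over both lines, 2 of the 7 genes were called, both lower, where 11.3% of all genes were called and 8.13% fell; at an unadjusted p under 0.05 these were 3 of 7 against 24.6%. NOTCH3 fell by 0.27 ± 0.06 (adjusted p = 0.0087) and NOTCH2 by 0.21 ± 0.06 (adjusted p = 0.0407). RBPJ stood at -0.14 ± 0.05 (adjusted p = 0.118), MAML3 at -0.09 ± 0.05, NOTCH1 at -0.05 ± 0.11, MAML1 at 0.04 ± 0.05 and MAML2 at 0.10 ± 0.06. In an exact two-sided permutation of treatment labels within lines, with 400 relabellings and a smallest possible p of 0.005, the unadjusted p was 0.010 for NOTCH3, 0.010 for NOTCH2 and 0.015 for RBPJ. For the other 4 genes of these 7 tests it ran from 0.055 to 0.765. Within 1 line no exact p can be under 0.10. NOTCH3 was called for the mean in 16 of 19 alternative fits, and lost under quantile normalization (-0.22, adjusted p = 0.239), with 18S (-0.22, 0.126) and with 18S and spikes (-0.25, 0.149). NOTCH2 was called in 4 of 19. NOTCH2 lost it under quantile normalization (-0.14, adjusted p = 0.633), with 18S (-0.17, 0.284) and without any 1 of 10 of the 12 arrays (adjusted p from 0.0561 to 0.0927). Leaving out KOPT-K1 DMSO replicate 3 or SAHM1 replicate 1 did not end the call. RBPJ passed without KOPT-K1 SAHM1 replicate 1 (-0.17, adjusted p = 0.0451). Probe sets called for the mean were 3 of 17, all lower (202443_x_at and 212377_s_at of NOTCH2 and 203238_s_at of NOTCH3), where 7.62% of all probe sets were called and 5.21% fell. At an unadjusted p under 0.05 they were 6 of 17, against 21.8%.

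**Figure D4:**
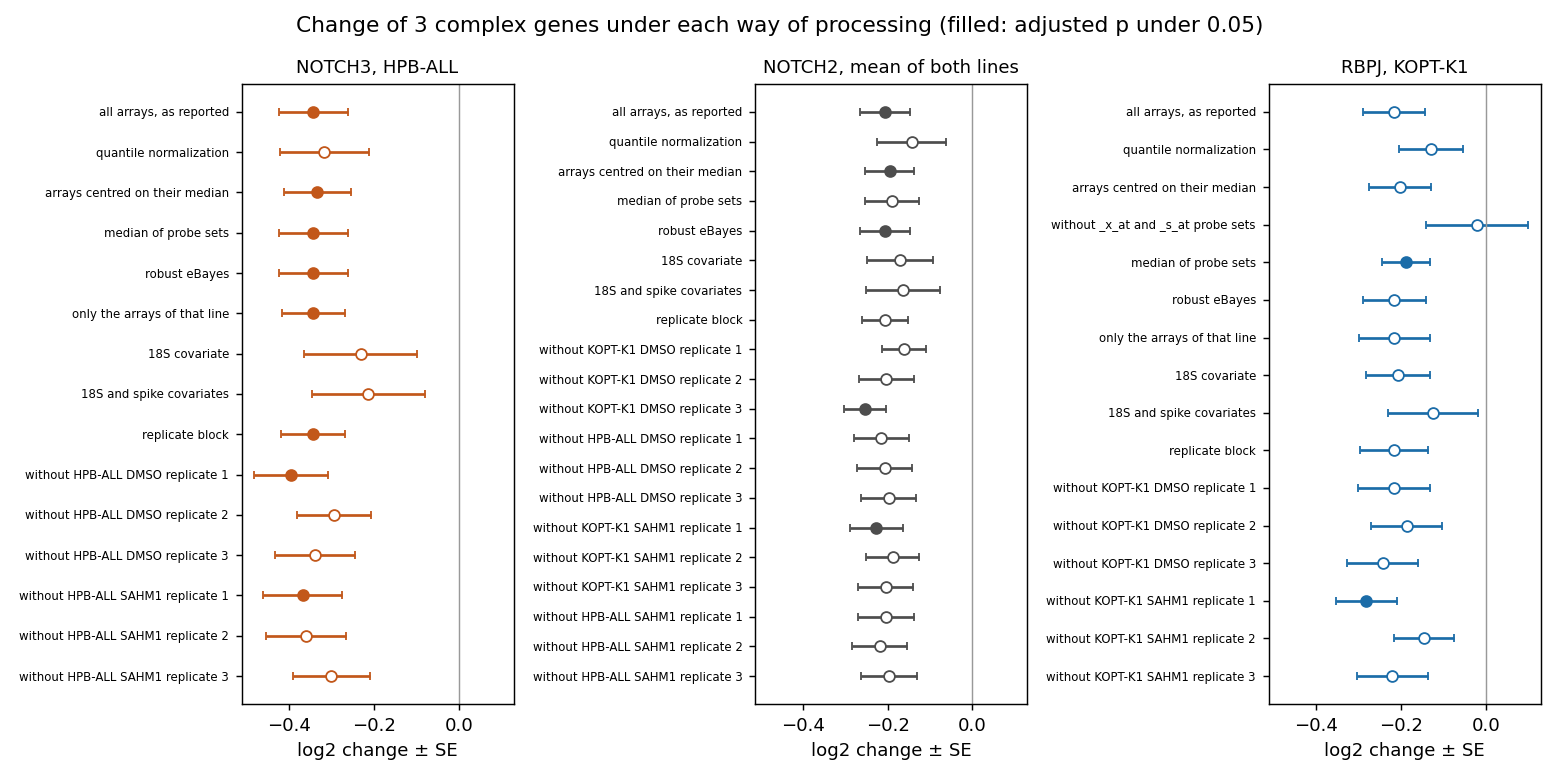
Log2 change ± SE of NOTCH3 in HPB-ALL, NOTCH2 as the mean of both lines and RBPJ in KOPT-K1 (x axis) under each way of processing or array left out (rows); filled points had adjusted p under 0.05. All values lie below 0, between -0.40 and -0.02, while the filled and open points are mixed in each panel.

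The response of the complex genes did not differ detectably between the lines. Tested as HPB-ALL minus KOPT-K1, limma called 0 of 7 genes (0 at an unadjusted p under 0.05), where 16.8% of all genes were called and 30.9% passed an unadjusted p under 0.05. The differences ran from -0.22 ± 0.23 for NOTCH1 (95% interval -0.71 to 0.27) to 0.16 ± 0.10 for RBPJ (-0.07 to 0.38), so gaps of those sizes are within the error. Of the 17 probe sets 1 was called, MAML3 207946_at at -0.58 ± 0.14 (adjusted p = 0.0226), where 11.7% of all probe sets were, 3.19% lower. At an unadjusted p under 0.05 it was also 1 of 17, against 25.8%. The call was lost once 18S was a covariate (-0.42, adjusted p = 0.417). It was also lost without KOPT-K1 DMSO replicate 2 or 3, HPB-ALL DMSO replicate 2 or 3, or HPB-ALL SAHM1 replicate 3 (adjusted p from 0.0513 to 0.0573).

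Other genes of the pathway were grouped by role. Of 43 measured of 46 listed, 2 rose and 10 fell in KOPT-K1, against 5.85% and 13.2% of all genes, with a median change of -0.11. In HPB-ALL 4 rose and 2 fell, against 4.96% and 4.38% of all genes, with a median of -0.01. For the difference between lines 11 were higher in HPB-ALL and 3 lower, against 11.4% and 5.41% of all genes. With 18S as covariate that difference was called higher for 2 and lower for 0, under quantile normalization for 1 and 0, and with 18S and spikes for 0 and 0. The list was tested neither as a set nor against the 7 genes.

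Receptor turnover genes supplied the largest fall of the list in KOPT-K1. NEDD4, a ubiquitin ligase, changed by -0.62 ± 0.07 there and by 0.22 ± 0.07 in HPB-ALL (adjusted p = 1.28e-04 and 0.0683), with 1 probe set. Of the 11 turnover and trafficking genes 3 fell in KOPT-K1, where 13.2% of all genes fell. In HPB-ALL 1 rose, where 4.96% of all genes rose. ITCH, a ubiquitin ligase that acts on NOTCH, chosen after its values were seen, fell by 0.58 ± 0.12 in the first and rose by 0.45 ± 0.12 in the second.

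Of 12 measured co-repressors and partners of RBPJ, 4 fell and 0 rose in KOPT-K1, where 13.2% of all genes fell and 5.85% rose. At an unadjusted p under 0.05 there, 6 were lower and 2 higher, where 32.9% of all genes passed. In HPB-ALL 1 rose and 1 fell, against 4.96% and 4.38% of all genes. TBL1X, a part of the NCOR co-repressor complex, changed by -0.54 ± 0.09 in KOPT-K1 (adjusted p = 0.0015) and by 0.11 ± 0.09 in HPB-ALL. SPEN, which joins RBPJ to co-repressors, changed by -0.51 ± 0.08 (adjusted p = 0.0017) and by 0.04 ± 0.08. For TBL1X 4 of 6 probe sets were called in KOPT-K1 and for SPEN 3 of 4, where 14.6% of all probe sets were. The gene changes are means of these same probe sets. KDM5A, a histone demethylase that binds RBPJ, fell in KOPT-K1 (-0.32 ± 0.08, adjusted p = 0.0117) and rose in HPB-ALL (0.34 ± 0.08, adjusted p = 0.0150). L3MBTL3, an RBPJ-binding repressor chosen after its values were seen, fell in HPB-ALL by 0.35 ± 0.08.

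Of 8 measured co-activators that meet mastermind, 0 rose and 2 fell in KOPT-K1, where 5.85% of all genes rose and 13.2% fell. At an unadjusted p under 0.05 there, 0 were higher and 5 lower, where 32.9% of all genes passed. In HPB-ALL 2 rose and 1 fell, against 4.96% and 4.38% of all genes. CDK8, the Mediator kinase that marks the NOTCH fragment for breakdown, fell in KOPT-K1 by 0.37 ± 0.06 (adjusted p = 0.0022) and stood at 0.10 ± 0.06 in HPB-ALL. KAT2A, an acetyltransferase, fell in HPB-ALL by 0.50 ± 0.06 (adjusted p = 6.32e-04), while its relative KAT2B rose there by 0.47 ± 0.09 (adjusted p = 0.0071). In KOPT-K1 KAT2B fell by 0.30 ± 0.09 (adjusted p = 0.0390), with overlapping arrays. Its 1 probe set missed the threshold in KOPT-K1 in the fit of probe sets (adjusted p = 0.0650). MED13, a Mediator subunit, rose in HPB-ALL by 0.38 ± 0.07 (adjusted p = 0.0057), with 1 of 4 probe sets called, against 5.15% of all. Of 8 co-activators, 5 had a higher and 1 a lower response in HPB-ALL than in KOPT-K1 by the test of the difference, where 11.4% and 5.41% of all genes did.

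Of 6 ligands 1 rose in KOPT-K1, where 5.85% of all genes rose. In HPB-ALL 0 were called (0 at an unadjusted p under 0.05), where 9.34% of all genes were called and 22.0% passed unadjusted. JAG1 and NOTCH4, both chosen after their values were seen, were the risers of the list in KOPT-K1, by 0.25 ± 0.06 and by 0.33 ± 0.07. Of 5 enzymes that add sugars to the receptors 1 fell in KOPT-K1, where 13.2% of all genes fell. In HPB-ALL 0 were called (1 at an unadjusted p under 0.05), against the same 9.34% and 22.0% of all genes. None of the pathway calls in HPB-ALL remained once 18S was a covariate (0 higher and 0 lower), and none in KOPT-K1 under quantile normalization (0 and 0). With 18S and spikes as covariates 1 was higher and 1 lower in KOPT-K1.

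**Figure D5:**
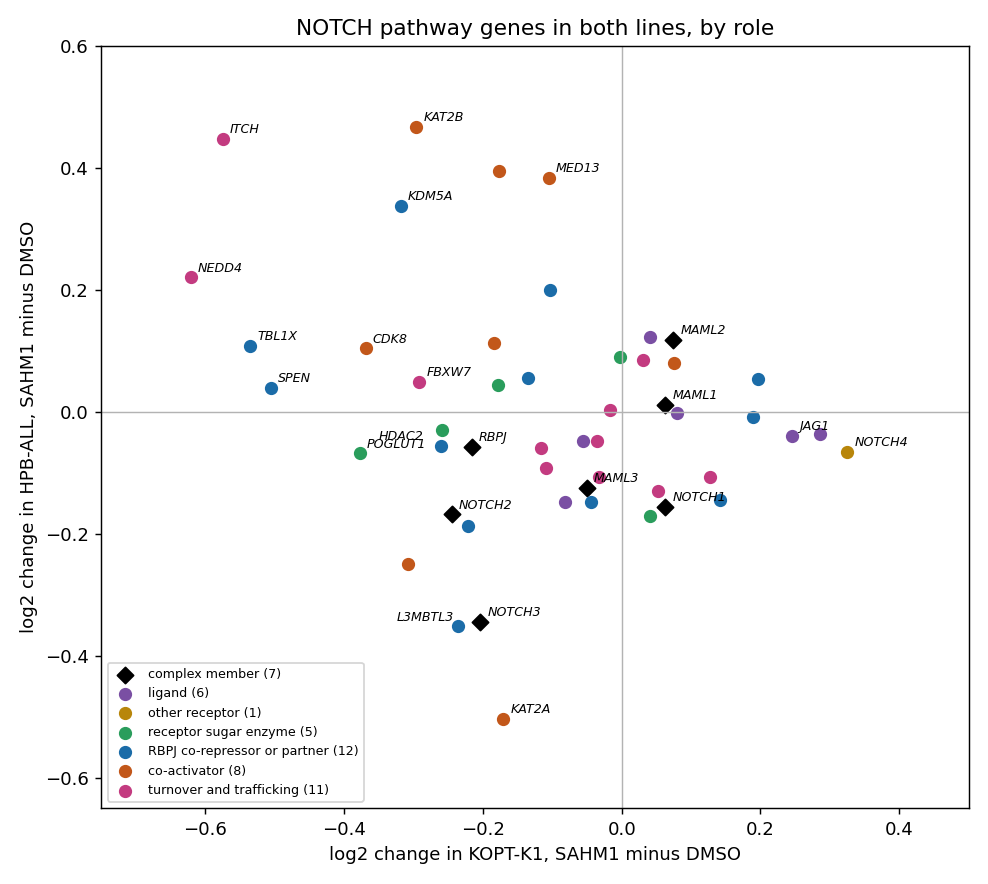
Log2 change in KOPT-K1 (x axis) against that in HPB-ALL (y axis), SAHM1 minus DMSO, for the 7 complex genes (black diamonds) and 43 other NOTCH pathway genes (circles, coloured by role); names are given for the 7 and for genes called in either line. The complex genes lie between -0.34 and 0.12 on both axes, while NEDD4 reaches -0.62 and KAT2B 0.47.

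Across the 12 arrays, the genes most like each member were ranked by Pearson's r of the log2 ratios, as a description, since arrays of a group share a treatment and each line its own reference. NOTCH3 was followed most closely by PSMD1 (r = 0.97), a proteasome subunit, PAFAH1B3 (0.96) and IGFBP2 (0.94), a binding protein of insulin-like growth factors. For NOTCH2 they were SEC31A (0.94), a coat protein of vesicles leaving the endoplasmic reticulum, AVEN (0.92) and RNPEP (0.92). For RBPJ they were FASTKD5 (0.96), AP3B1 (0.95) and ATR (0.95), a DNA damage kinase. MAML3 was most like DUSP5 (0.93), a phosphatase of ERK, MLXIP (0.92) and ATG14 (0.91). The values were lower for MAML1, with ICA1, GCHFR and GAB4 each at 0.89. NOTCH1 was most like LINC01809 (0.93), MMP21 (0.92) and LINC00269 (0.91), and MAML2 like C2orf92 (0.92), OR10H1 (0.91) and MDH1B (0.88).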

How the data were processed

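RNA of 12 samples was hybridized to Affymetrix human arrays. The submitters' processing notes name RMA, whose version is not given in the sources used here. Per the file's values, the authors deposited a linear ratio per probe set and array: the 3 DMSO arrays of each line averaged 1 (tolerance 1e-06) in all 54675 probe sets, and values ran from 0.0827 to 6.98. No depth applies; the number of arrays limits precision. Analysis used the log2 of these, with no pseudocount; with no levels, low values could not be filtered.

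Of the probe sets, 62 were controls and 41097 had 1 symbol (platform annotation), giving 19775 genes as means of probe sets; 1801 had several symbols. limma 3.58.1 in R 4.3.3 (lmFit, eBayes, two-sided; 4 groups, 12 arrays, 8 residual degrees of freedom) was fitted to all genes and to 54613 probe sets, with Benjamini-Hochberg adjustment over all. The code was tested on simulated data. The labels do not say that samples of a group were separate experiments, so p-values measure only the spread between these samples, which may be technical. The members, lists, tests and alternatives were chosen with earlier results of these data known. Named genes were the 7 members with all probe sets, HES1, HES4 and DTX1, the 4 called pathway genes with the smallest p per line, and the 3 genes most like each member. Replicate numbers gave no detectable pairing of the arrays, and the labels do not say whether any existed.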

Additional observations from a re-analysis of the deposited data

Results flagged for a closer look

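MAML3 probe set 207946_at was called as different between the lines, the only 1 of 17 member probe sets, where 11.7% of all were called. Its change was 0.37 in KOPT-K1, with all 3 SAHM1 arrays above the DMSO arrays, and -0.21 in HPB-ALL, with all 3 below. The difference, HPB-ALL minus KOPT-K1, was -0.58 ± 0.14 (limma, adjusted p = 0.0226). The other MAML3 probe sets, 228508_at and 242794_at, differed by 0.08 ± 0.17 and 0.27 ± 0.22 in the opposite direction (adjusted p = 0.820 and 0.470). Under quantile normalization the difference was -0.45 (adjusted p = 0.370). With 18S as covariate it was -0.42 (adjusted p = 0.417), and with 18S and spikes -0.34 (adjusted p = 0.741). The call was lost in 5 of 12 fits that each left out 1 array. The cause was not tested.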

How the results depend on the processing

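No called change of a complex gene or probe set changed sign under any alternative run. The counts of called genes did change. With all arrays they were 0 (KOPT-K1), 1 (HPB-ALL), 2 (mean) and 0 (difference), and for probe sets 3, 1, 3 and 1. Under quantile normalization, and with 18S and spike levels as covariates, all 8 counts were 0. With the 18S level alone, they were 0 except for 3 probe sets in KOPT-K1. Quantile normalization of ratios already set to the DMSO mean can narrow the SAHM1 arrays and widen the DMSO arrays. NOTCH2 212377_s_at in KOPT-K1 went from -0.51 ± 0.12 to -0.29 ± 0.15 under it. The 18S level in HPB-ALL and the spikes in KOPT-K1 moved with treatment. What the lost calls are due to was not tested. Without _x_at and _s_at probe sets, which leaves NOTCH2 and NOTCH3 unmeasured, HPB-ALL and the mean each had 0 genes and 0 probe sets called, and KOPT-K1 had 1 probe set. With the median of probe sets, 1 gene was called in KOPT-K1 (RBPJ) and 1 for the mean. Probe sets called in HPB-ALL fell to 0 with arrays centred on their median, with robust eBayes, and with only that line's arrays; with only its own arrays KOPT-K1 also had 0. Leaving out 1 array at a time gave 0 to 2 genes (KOPT-K1), 0 to 1 (HPB-ALL), 1 to 3 (mean) and 0 (difference). For probe sets it gave 0 to 4, 0 to 1, 1 to 4 and 0 to 1.

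With the replicate block, 1 gene was called for the mean and 0 probe sets in HPB-ALL. Deviations of DMSO and SAHM1 arrays with the same replicate number correlated between -0.05 and 0.07, and those with different numbers between -0.08 and 0.06. KOPT-K1 DMSO replicates 1 and 2 and HPB-ALL DMSO replicate 3 correlated best with the SAHM1 array of their own number. The other DMSO arrays did not. With 3 arrays per group, these values cannot decide whether the arrays were paired. Under the block, calls over all genes became 3071 (KOPT-K1), 1261 (HPB-ALL) and 1692 (mean).

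Over all genes 3761, 1846, 2232 and 3323 were called in KOPT-K1, HPB-ALL, the mean and the difference. Under quantile normalization these were 136, 417, 294 and 211, with 18S 3493, 52, 752 and 324, and with 18S and spikes 597, 39, 397 and 68. Without _x_at and _s_at probe sets they were 2498, 1019, 1242 and 2270. The causes were not tested. A filter on low levels was not run, since ratios hold no levels.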

Other observations

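Among the complex genes, pairwise Pearson correlations over the 12 arrays, given as a description with no test, were 0.73 for NOTCH2 with NOTCH3, 0.72 for NOTCH2 with RBPJ and 0.38 for NOTCH3 with RBPJ. NOTCH1 correlated at 0.74 with MAML1, at 0.24 with NOTCH3 and at -0.15 with NOTCH2. Arrays share a line's reference, and arrays of a group share a treatment. What the correlations are due to was not tested.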
